A study of Mus musculus with 8 samples.

Results

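Nuclear pseudogenes that carry mitochondrial sequence, Gm13339, Gm28438, Gm28437, Gm28661, Gm29216 and Gm10925, were examined in RNA-sequencing of the mouse heart, set beside the mitochondrially encoded genes of the same libraries, whose symbols begin with mt-. The pseudogenes are 6 of the 25929 genes listed, all annotated as unprocessed pseudogenes, and each was found in the table by its Ensembl identifier. They were selected on their measured values, namely lower levels in WT-TAC than its sham group and higher levels in Fat1-TAC than WT-TAC hearts, so those comparisons are given below as a description, and counts of calls in them support nothing.

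There were 2 libraries for each of 4 groups of hearts, sham-operated and constricted wild type (WT-Sham and WT-TAC) and sham-operated and constricted fat-1 (Fat1-Sham and Fat1-TAC), labelled as independent samples. WT-TAC1 stands for the first library of WT-TAC. WT mice were C57BL/6 by their labels and C57BL/6J by the abstract of the study, and fat-1 mice were their transgenic littermates. The transgene encodes a desaturase from Caenorhabditis elegans that makes n-3 polyunsaturated fatty acids out of n-6 ones. Mice of both genotypes were 3 months old when they underwent transverse aortic constriction (TAC), which narrows the aortic arch and overloads the heart with pressure, or a sham operation in which the chest was opened and the aorta left unconstricted. The labels name ventricular tissue as the source of RNA, the methods name whole hearts, and the cells in which the transgene was expressed are not given in the sources used here. Values are FPKM, a level in which fragments are divided by gene length and library depth. Depth lay between 14163994 fragments in WT-Sham1 and 21218331 in WT-Sham2.

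Over evolutionary time, pieces of mitochondrial DNA have been copied into the nuclear chromosomes, where they are inherited as pseudogenes. Mitochondrial codons are read differently in the cytoplasm, and such copies are not known to make respiratory chain proteins. The mitochondrial genome itself encodes core subunits of complex I (the mt-Nd genes), complex III (mt-Cytb), cytochrome c oxidase (mt-Co1, mt-Co2 and mt-Co3) and ATP synthase (mt-Atp6 and mt-Atp8), and the heart is among the tissues richest in these transcripts. A fragment from a stretch that is the same in both places has no base that tells where it came from, so counts of such genes depend on how a read with more than 1 place was handled, which is not given in the sources used here.

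The sequences show how close these copies are. On GRCm38 (gene models of GENCODE M21), 5 of the 6 lie side by side on the minus strand of chromosome 1, from base 24612775 to base 24616197, and follow the mitochondrial gene order from the last part of mt-Co1 to mt-Nd3 (mitochondrial bases 6390 to 9803). They are collinear with it, as the sum of nuclear and mitochondrial positions was the same in all 5 genes. Gm13339 lies on chromosome 2 at bases 22590024 to 22590533, minus strand. The first 80 aligned bases of the chromosome 1 members and the 80 bases of Gm13339 with the most differences are shown, 5′ to 3′ as transcribed, since they are what a sequencing fragment would have to be told apart by. Capitals mark bases that differ between the nuclear copy and mitochondrial DNA.
Gm29216, chr1:24616109-24616188: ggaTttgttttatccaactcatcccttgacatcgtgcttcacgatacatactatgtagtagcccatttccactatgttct
mt-Co1, same stretch: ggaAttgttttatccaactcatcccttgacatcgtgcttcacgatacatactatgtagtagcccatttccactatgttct
Gm28661, chr1:24615486-24615565, and mt-Co2: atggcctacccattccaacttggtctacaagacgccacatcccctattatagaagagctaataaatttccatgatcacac
Gm10925, chr1:24614572-24614651, and mt-Atp6: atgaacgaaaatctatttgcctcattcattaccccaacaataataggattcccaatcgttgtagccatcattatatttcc
Gm28437, chr1:24613892-24613971, and mt-Co3: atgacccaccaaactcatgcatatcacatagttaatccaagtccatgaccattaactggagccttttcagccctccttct
Gm28438, chr1:24613040-24613119: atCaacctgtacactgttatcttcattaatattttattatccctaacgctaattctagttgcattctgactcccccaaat
mt-Nd3, same stretch: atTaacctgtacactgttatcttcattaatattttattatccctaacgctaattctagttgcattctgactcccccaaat
Gm13339, chr2:22590231-22590310: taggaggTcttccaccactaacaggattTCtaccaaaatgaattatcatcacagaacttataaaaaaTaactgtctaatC
mt-Nd2, same stretch: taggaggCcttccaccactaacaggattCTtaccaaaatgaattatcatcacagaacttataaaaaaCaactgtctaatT

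Gm28661, Gm10925 and Gm28437 matched mitochondrial DNA at every base, over 681, 678 and 783 bases, so a single line stands for both. Gm28438 differed at 1 of 345 bases (99.71% identity), T9461C, and Gm29216 at 1 of 483 aligned bases (99.79% identity), A6393T, with 9 further bases at its start that did not align. In these tokens the mitochondrial base comes first, then its position counted from the first base of mitochondrial DNA, then the nuclear base. Gm13339 stood apart with 17 differences over 510 bases and an identity of 96.67%. Of all stretches of 100 bases in a member, the share found unchanged in mitochondrial DNA was 100% in Gm28661, Gm10925 and Gm28437, 98.8% in Gm28438, 96.7% in Gm29216 and 7.3% in Gm13339.

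Seen from the mitochondrial side, unchanged copies were spread unevenly along the genome. The share of 100-base stretches that recur unchanged in annotated nuclear copies was 99.5% for mt-Co2, 99.5% for mt-Atp6, 99.9% for mt-Co3, 97.6% for mt-Nd3 and 98.5% for mt-Nd4l, the last through the neighbouring pseudogene Gm10222. It was 60.8% for mt-Nd4, 30.8% for mt-Co1 and 3.2% for mt-Nd2, and 0% for mt-Nd1, mt-Nd5, mt-Nd6, mt-Cytb and mt-Atp8. A low share does not mean that no copy exists, since diverged copies do not count in it. Gm13340 aligned to mt-Co1 over 1545 bases at 97.61% identity, and Gm11408 to mt-Nd6 over 519 bases at 93.64%. The zero of mt-Atp8 rests on annotated genes alone, since the chromosome 1 bases that would line up with most of it, between Gm28661 and Gm10925, belong to no annotated copy and were not compared.

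The mt- genes with a near-complete, unchanged nuclear copy were listed at far lower levels than the other mt- protein genes, except mt-Atp8. Over the 8 libraries, the mean was 1591 FPKM for mt-Co2, 955 for mt-Co3, 771 for mt-Atp6, 508 for mt-Nd3 and 193 for mt-Nd4l. Genes with few or no unchanged stretches had means of 31288 FPKM for mt-Cytb, 26184 for mt-Nd1, 20530 for mt-Nd2, 11480 for mt-Nd5 and 7325 for mt-Nd6. The ranges of these groups over the libraries did not overlap, as mt-Co2 reached at most 3795 FPKM and mt-Nd6 was never below 4761. With shares of unchanged stretches between these groups, mt-Co1 and mt-Nd4 had means of 63309 and 12626 FPKM. The short mt-Atp8 had the lowest mean, 28.0 FPKM. With 13 genes that share all libraries, this is a description without a test.

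**Figure D1:**
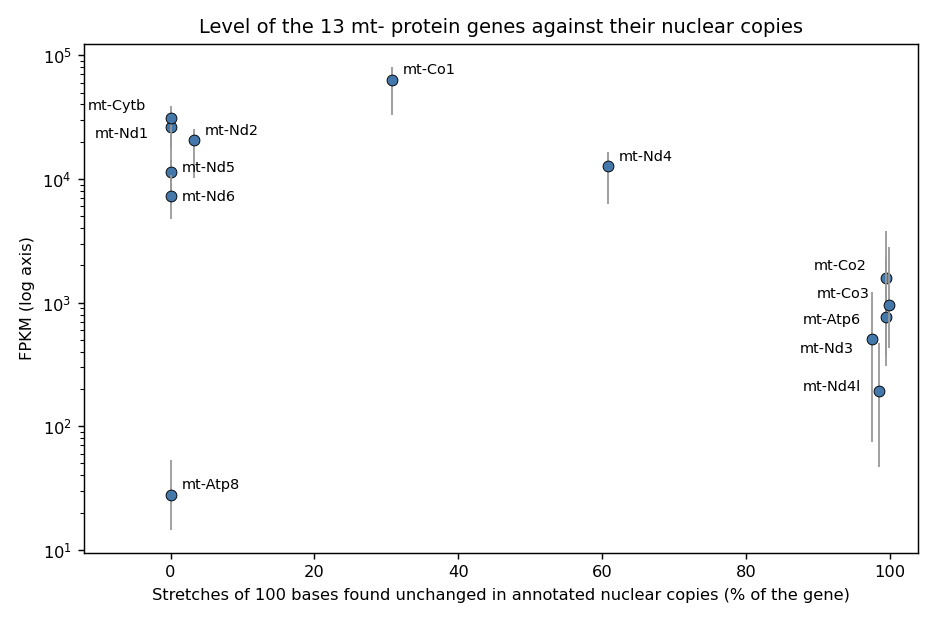
Each point is 1 of the 13 mt- protein genes, placed by the share of its 100-base stretches found unchanged in annotated nuclear copies (horizontal axis, %) and by its mean FPKM over the 8 libraries (vertical log axis), and the grey line spans its lowest to highest library. The 5 genes at 97.6% or more had means between 193 and 1591 FPKM, the genes at 3.2% or less had means of 7325 FPKM or more except mt-Atp8, and mt-Co1 and mt-Nd4 lie between them in share.

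The pseudogenes that copy cytochrome c oxidase subunits were among the higher members. Gm29216, the copy of the end of mt-Co1 (the catalytic subunit), stood at 1051 and 1034 FPKM in WT-Sham, 303 and 608 in WT-TAC, 823 and 967 in Fat1-Sham, and 582 and 665 in Fat1-TAC. Gm28661, the copy of mt-Co2, which takes electrons from cytochrome c, stood at 854 and 912 FPKM in WT-Sham, 168 and 439 in WT-TAC, 851 and 767 in Fat1-Sham, and 628 and 484 in Fat1-TAC. Gm28437, the copy of mt-Co3, stood at 746 and 570 FPKM in WT-Sham, 172 and 317 in WT-TAC, 484 and 614 in Fat1-Sham, and 509 and 399 in Fat1-TAC. WT-TAC1 was the lowest library in each of these 3 genes. Both WT-TAC libraries lay below the other 6 in Gm28661 and Gm28437, whereas in Gm29216 WT-TAC2 lay above Fat1-TAC1.

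Gm10925 copies mt-Atp6, the subunit of ATP synthase that forms its proton channel. It stood at 936 and 853 FPKM in WT-Sham, 254 and 504 in WT-TAC, 1246 and 743 in Fat1-Sham, and 759 and 562 in Fat1-TAC. Its 2 Fat1-Sham libraries were the farthest apart of any sham pair in FPKM, and Fat1-TAC1 fell between them.

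The members that copy complex I subunits were the lowest. Gm28438, the copy of mt-Nd3, stood at 223 and 136 FPKM in WT-Sham, 54.2 and 73.9 in WT-TAC, 141 and 134 in Fat1-Sham, and 105 and 121 in Fat1-TAC. Gm13339, the diverged copy of the last part of mt-Nd2, stood at 62.0 and 40.8 FPKM in WT-Sham, 13.3 and 20.9 in WT-TAC, 40.8 and 49.5 in Fat1-Sham, and 27.4 and 22.9 in Fat1-TAC. In both genes the 2 WT-TAC libraries were the lowest of all and the 2 Fat1-TAC libraries lay below all 4 sham libraries. The ranges of Gm29216, Gm10925, Gm28661 and Gm28437 over the libraries overlapped, so no order among them can be read beyond their spread.

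**Figure D2:**
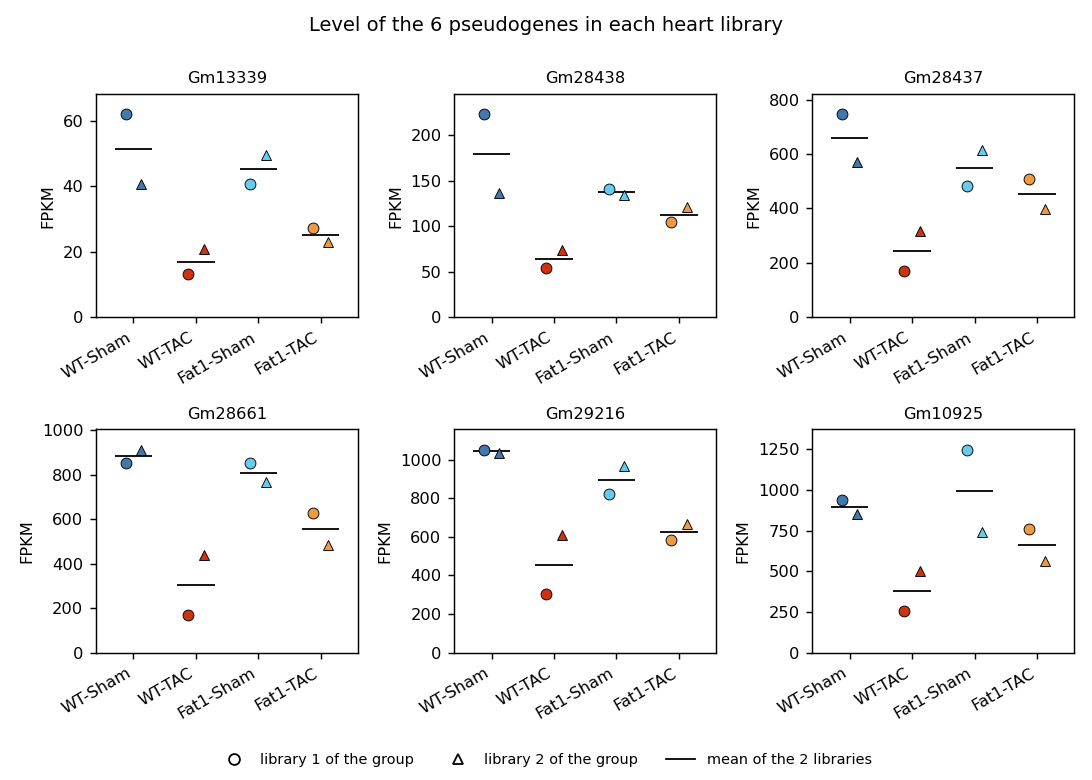
FPKM (vertical axis, from 0, its own scale in each panel) of each of the 6 pseudogenes in the 2 libraries of each group (circle, library 1, triangle, library 2), with a bar at the mean of the pair. WT-TAC1 was the lowest library in all 6 panels, and both WT-TAC libraries lay below the other 6 in all but Gm29216.

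The choice of members by their WT-TAC values largely fixes how alike they look across libraries. Pearson correlations of log2(FPKM + 1) between members ran from 0.85 (Gm28438 with Gm10925) to 0.96 (Gm28661 with Gm10925) over the 8 libraries, all genes of a library sharing its depth and group, and are given as a description. Of the other 5 listed copies with values high enough to be tested, the chromosome 1 neighbour Gm28439, an exact copy of most of mt-Nd4, stood at 235 and 227 FPKM in WT-Sham, 69.0 and 146 in WT-TAC, 209 and 223 in Fat1-Sham, and 184 and 166 in Fat1-TAC. Its pattern was the most like that of Gm28661 among all tested genes (r = 0.990). Gm13340, the chromosome 2 copy of mt-Co1 with an identity of 97.61%, stood at 145 and 114 FPKM in WT-Sham, 29.0 and 63.8 in WT-TAC, 113 and 111 in Fat1-Sham, and 78.9 and 67.1 in Fat1-TAC, and was the second closest to Gm13339 (r = 0.965).

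Gm10222, the exact copy of mt-Nd4l, did not follow the members in fat-1 hearts. It stood at 98.2 and 60.6 FPKM in WT-Sham, 20.1 and 53.2 in WT-TAC, 54.5 and 72.5 in Fat1-Sham, and 117 and 69.5 in Fat1-TAC, with Fat1-TAC1 the highest of all libraries. Gm13341, a second mt-Co2 copy on chromosome 2, ranged from 6.59 FPKM in WT-Sham2 to 22.0 in WT-Sham1, and Gm4076, an mt-Nd5 copy, from 0.836 in WT-TAC1 to 2.19 in WT-Sham1. Gm11408 and Gm11407 were below 1 FPKM in every library and were not tested.

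For each member, the 3 genes with the most similar pattern are named next, with no test of what they share. Gm28437 was closest to Cox6b1 (r = 0.982), Cox7a2 (r = 0.979) and Ndufs5 (r = 0.978), which encode subunits of cytochrome c oxidase and complex I. Ndufs5 (r = 0.982) and Mrps36 (r = 0.982) followed Gm28439 for Gm28661, and Ndufa3 (r = 0.953), of complex I, came after Gm4045 (r = 0.971) and Gm13340 for Gm13339. Gm28438 was closest to the processed pseudogenes Ndufb4c (r = 0.968) and Gm4045 (r = 0.961) and to Rwdd1 (r = 0.952). Gm29216 was closest to Klhdc2 (r = 0.984), Mrpl51 (r = 0.979), a protein of the mitochondrial ribosome, and Gm13394 (r = 0.978), and Gm10925 to Car4 (r = 0.982), a carbonic anhydrase, Ap4s1 (r = 0.959) and Gm28661 (r = 0.958). All of these are Pearson correlations over the same 8 libraries.

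How a pair of a pseudogene and its mitochondrial counterpart was divided differed between libraries. Of the fragments counted on Gm28438 or mt-Nd3, the pseudogene held 42.1% and 29.3% in WT-Sham, 41.9% and 32.8% in WT-TAC, 13.6% and 22.6% in Fat1-Sham, and 7.91% and 15.5% in Fat1-TAC. All 4 fat-1 libraries were below all 4 WT libraries, and Fat1-TAC1 was the lowest. For Gm28437 and mt-Co3 the share was 51.7% and 41.6% in WT-Sham, 26.3% and 42.6% in WT-TAC, 32.5% and 51.4% in Fat1-Sham, and 15.2% and 32.8% in Fat1-TAC.

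Gm10925 held the larger part of its pair in most libraries. Of the fragments on Gm10925 or mt-Atp6 it held 56.1% and 61.7% in WT-Sham, 45.1% and 54.5% in WT-TAC, 63.4% and 60.9% in Fat1-Sham, and 24.5% and 45.8% in Fat1-TAC. For Gm28661 and mt-Co2 the share was 39.6% and 43.3% in WT-Sham, 31.1% and 31.9% in WT-TAC, 27.1% and 33.6% in Fat1-Sham, and 14.1% and 26.2% in Fat1-TAC. Fat1-TAC1 was again the lowest library in both pairs. These pairs held between 885 and 56489 fragments a library, which gives 95% Wilson intervals of at most ± 3.24 percentage points. Intervals cover counting error within a library only, and not the spread between hearts. They treat fragments as independent, and may be too narrow, as PCR copies of a fragment were not marked by molecular identifiers.

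The remaining pairs were one-sided. Gm29216 held between 0.246% and 0.513% of the fragments on itself or mt-Co1, and Gm13339 between 0.0517% and 0.121% of those on itself or mt-Nd2, with intervals of at most ± 0.0112 percentage points. For Gm29216 the sequence shared with mt-Co1 is only the last part of that gene, so the share also reflects the unshared length of mt-Co1.

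**Figure D3:**
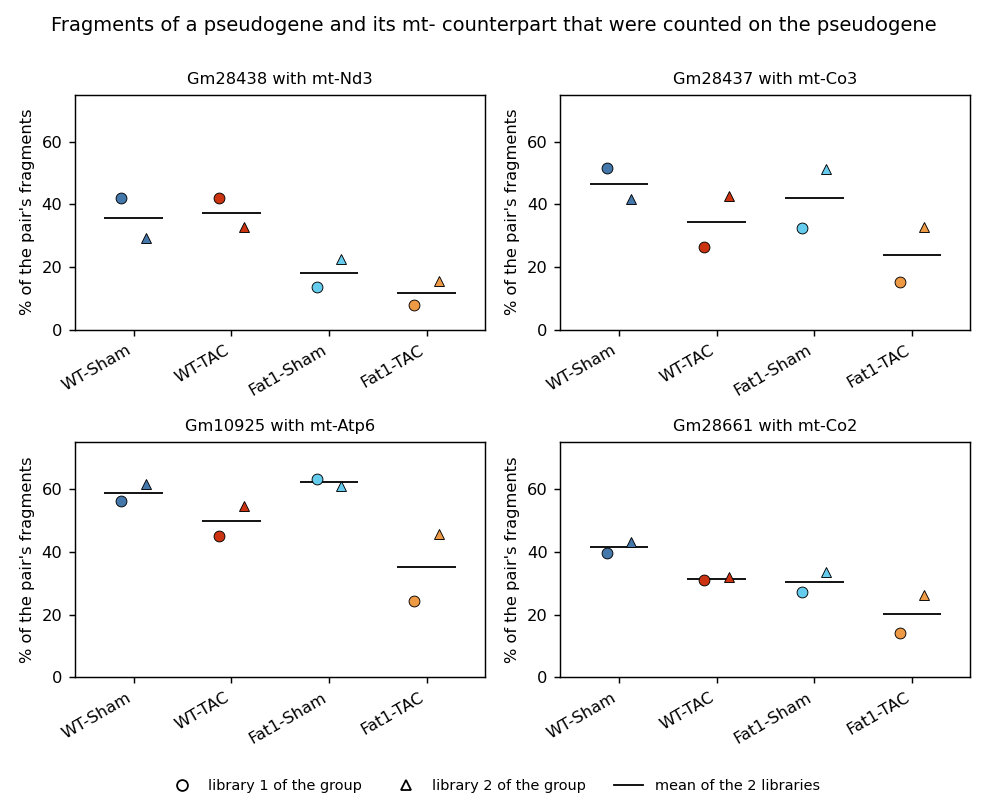
Share of the fragments of a pair that were counted on the pseudogene (vertical axis, %, from 0) in the 2 libraries of each group (circle, library 1, triangle, library 2), with a bar at the mean. Fat1-TAC1 was the lowest library in all 4 pairs, at 7.91%, 15.2%, 24.5% and 14.1%, and for Gm28438 with mt-Nd3 all fat-1 libraries lay below all WT libraries.

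The sum of a pair does not depend on how fragments were divided within it. Gm28661 and mt-Co2 together held 1468 and 1436 of every 1000000 fragments in WT-Sham, 369 and 937 in WT-TAC, 2137 and 1557 in Fat1-Sham, and 3024 and 1256 in Fat1-TAC. Gm10925 and mt-Atp6 together held 1132 and 937 in WT-Sham, 381 and 627 in WT-TAC, 1333 and 827 in Fat1-Sham, and 2101 and 830 in Fat1-TAC. In these sums, and in those of Gm28437 with mt-Co3 and Gm28438 with mt-Nd3, both WT-TAC libraries were the lowest and Fat1-TAC1 was the highest. Fat1-TAC2 lay within the range of the 4 sham libraries in 3 of the 4 pairs and below it for Gm28661 with mt-Co2.

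Fat1-TAC1 also stood apart in the mt- genes of these pairs. It was listed at 3795 FPKM for mt-Co2, 2329 for mt-Atp6, 2837 for mt-Co3 and 1210 for mt-Nd3, against 1354, 660, 817 and 652 in Fat1-TAC2. The summed level of the 5 mt- genes with near-complete, unchanged copies was 8.94% of that of mt-Nd1, mt-Nd2, mt-Nd5, mt-Nd6 and mt-Cytb in Fat1-TAC1, 5.19% in Fat1-Sham1, and between 2.46% and 3.42% in the other 6 libraries. The part of this difference between libraries in the results was not tested beyond leaving each library out.

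Fat1-Sham was compared with WT-Sham to ask what the transgene changed in hearts without aortic constriction. The comparison was not itself used to choose the members, but it shares the WT-Sham libraries with one that was, so it is not independent of the choice. A gene was called where limma gave a Benjamini-Hochberg adjusted p below 0.1 and a change of more than 1.5-fold. None of the 6 members was called, beside 0% of the 14442 genes tested, while 129 genes passed the same fold with an unadjusted p below 0.05. Log2 fold changes of the members ran from -0.34 (SE 0.26, Gm28438) to 0.11 (SE 0.38, Gm10925), with a median of -0.19 beside -0.01 for all genes tested. Every member had an adjusted p of 1. All 6 members passed the filter of 1 FPKM in at least 2 libraries, and they passed it in every library.

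Fat1-TAC was compared with Fat1-Sham to ask what pressure overload changed in fat-1 hearts, and the Fat1-TAC libraries were likewise part of a comparison used in the choice. The mean of each member was lower in Fat1-TAC, but none was called, beside 0.00692% of all genes tested, 1 gene, while 269 genes passed the fold with an unadjusted p below 0.05. The lowest log2 fold change was that of Gm13339, -0.82 (SE 0.28, unadjusted p = 0.0213 and adjusted p = 1 in limma), with a mean 0.557 times that of Fat1-Sham. Gm10925 had -0.56 (SE 0.38), Gm28661 -0.55 (SE 0.41), Gm29216 -0.52 (SE 0.31), Gm28438 -0.29 (SE 0.26) and Gm28437 -0.27 (SE 0.32), all at an adjusted p of 1. On leaving out 1 library at a time, Gm10925 ran from -0.93 (without Fat1-Sham2) to -0.19 (without Fat1-Sham1) and Gm28437 from -0.45 to -0.10. The median of the members was -0.54 beside 0.02 for all genes tested. The 5 other tested copies were split, with 3 lower and 2 higher, Gm10222 at 0.51 (SE 0.48) and Gm13341 at 0.21 (SE 0.48). In Gm13339, Gm28438, Gm28661 and Gm29216 both Fat1-TAC libraries lay below both Fat1-Sham libraries, as they did in 21.5% of all genes tested.

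The fitted values of the mt- protein genes had the opposite sign. All 13 had a higher mean on the log scale in Fat1-TAC than in Fat1-Sham, with a median log2 fold change of 0.35, and in 0 of 13 did both Fat1-TAC libraries lie below both Fat1-Sham libraries. The mitochondrial rRNA genes mt-Rnr1 and mt-Rnr2 had values of -0.89 (SE 0.44) and -0.79 (SE 0.39). Without Fat1-TAC1, 9 of the 13 protein genes had a higher value and the median was 0.10, and without Fat1-Sham2 the count was 11 and the median 0.21. In mt-Co1, mt-Co2 and mt-Nd4 the Fat1-TAC2 library lay below both Fat1-Sham libraries. None of these 15 genes was called. The widest gap was that of mt-Atp8, at 21.2 and 14.5 FPKM in Fat1-Sham and 52.7 and 50.5 in Fat1-TAC (unadjusted p = 0.000901 and adjusted p = 1 in limma).

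Set against the mt- protein genes of the same library, the members had a lower summed level after TAC than after sham surgery in fat-1 hearts. Their summed FPKM was 1.81% and 1.99% of that of the 13 mt- protein genes in WT-Sham, 1.05% and 1.31% in WT-TAC, 1.92% and 1.78% in Fat1-Sham, and 1.18% and 1.19% in Fat1-TAC. The 4 TAC libraries lay below the 4 sham libraries without overlap, but the WT side of this was largely fixed by the choice of the members, and nothing is read from it. The means were 1.90% ± 0.125 (SD, n = 2) for WT-Sham and 1.18% ± 0.181 for WT-TAC. For fat-1 hearts they were 1.85% ± 0.101 after sham surgery and 1.19% ± 0.00702 after TAC. Within fat-1 hearts the gap was larger than the spread of either pair, and no p is given, since an exact two-sided permutation test of 2 against 2 libraries cannot go below p = 0.333 and no model was fitted to this ratio.

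The parts of this ratio are given side by side. The summed FPKM of the members was 3871 and 3546 in WT-Sham, 964 and 1962 in WT-TAC, 3585 and 3275 in Fat1-Sham, and 2610 and 2253 in Fat1-TAC. That of the mt- protein genes was 213658 and 178324 in WT-Sham, 91679 and 150000 in WT-TAC, 186294 and 183807 in Fat1-Sham, and 221205 and 189333 in Fat1-TAC. In fat-1 hearts both TAC libraries lay below both sham libraries in the sum of the members and above them in that of the mt- protein genes. The WT values of the members are those they were selected on, so no difference between genotypes is read from these sums. In bulk RNA, fewer cells rich in mitochondria and less of these RNAs per cell cannot be told apart.

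**Figure D4:**
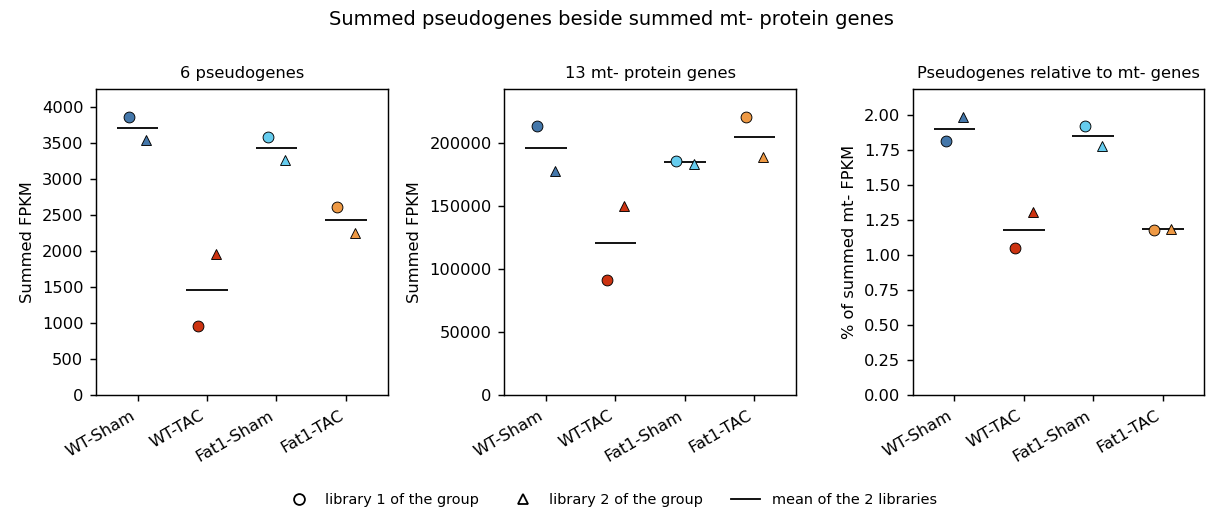
Summed FPKM of the 6 pseudogenes (left), summed FPKM of the 13 mt- protein genes (middle) and the first as a percentage of the second (right), each from 0, in the 2 libraries of each group (circle, library 1, triangle, library 2) with a bar at the mean. In the right panel the 4 TAC libraries lie between 1.05% and 1.31% and the 4 sham libraries between 1.78% and 1.99%.

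For WT-TAC and WT-Sham, the comparison the members were selected on, log2 fold changes ran from -1.70 (SE 0.41) for Gm28661 to -1.28 (SE 0.31) for Gm29216. The means of WT-TAC were 0.344 times those of WT-Sham for Gm28661, 0.332 times for Gm13339, 0.357 times for Gm28438, 0.372 times for Gm28437, 0.423 times for Gm10925 and 0.437 times for Gm29216. The median of the members was -1.46 beside 0.39 for all genes tested, so relative to the typical gene the members were lower still. Of the members, Gm13339 and Gm28438 were called lower, beside 0.0138% of all genes called lower and 0.921% called higher, and nothing is read from that count. Both WT-TAC libraries lay below the other 6 libraries in 5 of 6 members, beside 3.80% of all genes tested, a pattern that the choice of the members largely fixed. Without WT-TAC1, WT-TAC2 lay below those 6 libraries in the same 5 members, beside 5.57% of all genes tested, and nothing is read from either count.

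Most mt- genes had the same sign in this comparison. Of the 13 protein genes, 12 had a lower fitted mean in WT-TAC, with a median log2 fold change of -0.75, and in 10 both WT-TAC libraries lay below the other 6. None of the 15 mt- genes was called, and the lowest were mt-Nd3 at -1.56 (SE 0.46), mt-Co2 at -1.08 (SE 0.58), mt-Rnr2 at -0.95 (SE 0.39) and mt-Nd2 at -0.91 (SE 0.41). The exception among the protein genes was mt-Atp8, at 0.30 (SE 0.28).

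Fat1-TAC and WT-TAC, which share the WT-TAC libraries with the preceding comparison and were likewise used in the selection, differed in the opposite direction. Log2 fold changes of the members ran from 0.53 (SE 0.31) for Gm29216 to 1.02 (SE 0.41) for Gm28661, with a median of 0.84 beside -0.40 for all genes tested, and means in Fat1-TAC were between 1.37 and 1.86 times those in WT-TAC. None of the members was called, beside 0.0346% of all genes called higher and 1.39% called lower, and 6 were called without WT-TAC2, from which nothing is read. Without WT-TAC1 the median was 0.35, and the value of Gm29216 was 0.03 and that of Gm28661 0.33. Fat1-TAC means were below Fat1-Sham means in all 6.

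Of the mt- genes, 2 of 15 were called higher in this comparison, both of complex I. mt-Nd3 was listed at 74.5 and 150 FPKM for WT-TAC against 1210 and 652 for Fat1-TAC, and had a log2 fold change of 3.06 (SE 0.46, adjusted p = 0.0554 in limma). The other, mt-Nd4l, was listed at 47.0 and 91.3 FPKM against 468 and 257, with a log2 fold change of 2.38 (SE 0.42, adjusted p = 0.0791 in limma). Both are among the genes that share nearly all their sequence with a nuclear copy, so their counts are uncertain. mt-Nd3 and Gm28438 together held 457 and 269 of every 1000000 fragments in Fat1-TAC, 359 and 205 in Fat1-Sham, 182 and 160 in WT-Sham, and 44.6 and 77.7 in WT-TAC. In that sum, as in the mt-Nd3 values, all 4 fat-1 libraries lay above all 4 WT libraries. The sum, too, depends on whether shared fragments were kept. Both calls were lost without WT-Sham1, WT-Sham2, WT-TAC1 or Fat1-TAC1, that of mt-Nd4l also without either Fat1-Sham library, and over 17 alternatives the adjusted p ran from 0.0019 to 0.369 for mt-Nd3 and from 0.00291 to 0.47 for mt-Nd4l.

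**Figure D5:**
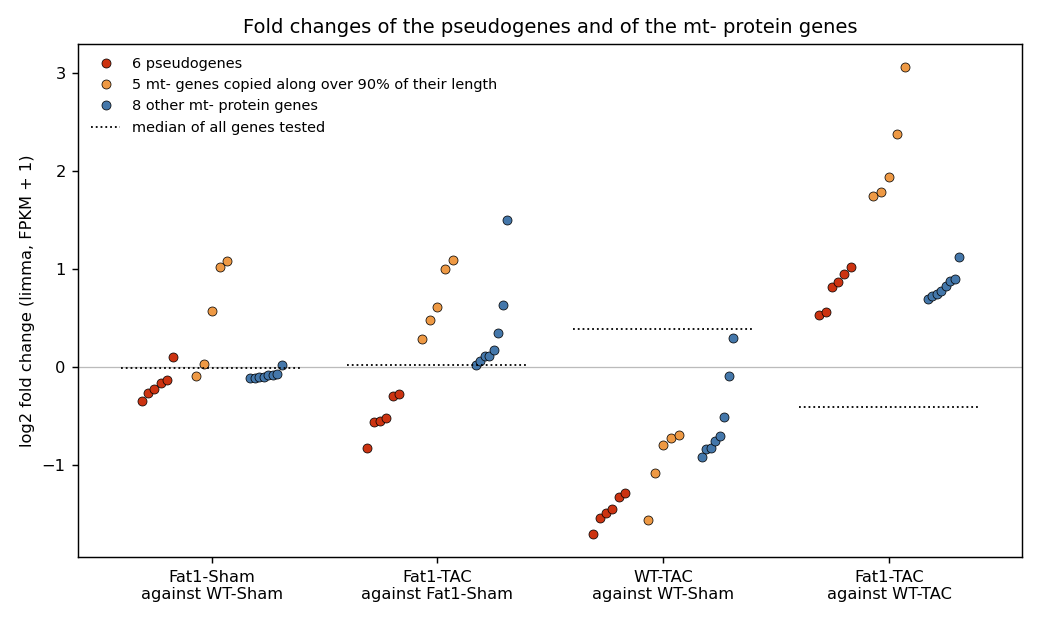
Log2 fold change from limma on log2(FPKM + 1) (vertical axis) in the 4 comparisons for the 6 pseudogenes, the 5 mt- genes with over 90% of their 100-base stretches in nuclear copies and the 8 other mt- protein genes, 1 point a gene, with the median of all genes tested as a dotted line. The pseudogenes lie between -1.70 and -1.28 in WT-TAC against WT-Sham and between -0.82 and -0.27 in Fat1-TAC against Fat1-Sham, where all 13 mt- protein genes lie above 0 (9 of 13 without Fat1-TAC1).

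Nuclear genes that serve mitochondrial DNA were compared as a list of 30 listed genes for its transcription, replication and RNA processing, 29 of them tested. None was called in any of the 4 comparisons, and the medians were 0.07 for Fat1-Sham against WT-Sham, 0.01 for Fat1-TAC against Fat1-Sham, 0.11 for WT-TAC against WT-Sham and -0.12 for Fat1-TAC against WT-TAC. Over all genes tested, the medians were -0.01, 0.02, 0.39 and -0.40 in the same order. The most abundant were Fastk, a mitochondrial RNA-binding protein, at 144 and 153 FPKM in WT-Sham and 111 and 154 in WT-TAC, and Grsf1, a factor of mitochondrial RNA granules, at 150 and 163 in WT-Sham and 114 and 161 in WT-TAC. Polg, the catalytic subunit of the mitochondrial DNA polymerase, was listed at 29.5 and 29.5 FPKM in WT-Sham and 59.2 and 37.0 in WT-TAC, and its partner Polg2 at 1.78 and 2.47 against 5.29 and 2.74. Both had log2 fold changes above the median of all genes, 0.65 (SE 0.22) and 0.64 (SE 0.29), and neither was called.

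Nuclear respiratory chain genes were taken by the prefix of their symbols, which also brings in assembly factors (Ndufaf), and 91 of 93 were tested. Their median was -0.47 in WT-TAC against WT-Sham, with 87 of 91 at a lower fitted mean, and 0.47 in Fat1-TAC against WT-TAC, and it was -0.02 and 0.01 in the comparisons of Fat1-Sham with WT-Sham and of Fat1-TAC with Fat1-Sham. The single call was Cox6a1, a cytochrome c oxidase subunit, lower in Fat1-TAC than in WT-TAC. Atp5b, the catalytic subunit of ATP synthase, was listed at 5990 and 5511 FPKM in WT-Sham and 3617 and 5609 in WT-TAC, and Atp5a1 at 2977 and 2711 against 1681 and 2688. Cox6a2 and Cox7a1, heart and muscle forms of cytochrome c oxidase subunits, had log2 fold changes of -0.90 (SE 0.32) and -0.87 (SE 0.31) in WT-TAC against WT-Sham. In WT-TAC1 they stood at 841 and 901 FPKM, below every other library.

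The WT-TAC libraries also differed from the rest in genes of other cell types. The heart markers Myh6, Actc1, Tnnt2, Tnni3, Myl2, Myl3, Ttn, Ryr2, Pln and Nppa summed to 26071 and 47461 FPKM in the WT-TAC libraries, against 52205 to 62476 elsewhere, and all 10 were above 0 in every library. WT-TAC1 was the lowest library in 9 of the 10, all but Nppa, whereas both WT-TAC libraries lay below the other 6 in 3 of 10, Actc1, Tnnt2 and Tnni3. In 7 of 9 airway and lung epithelium markers both WT-TAC libraries lay above all others, and the list summed to 1583 and 3776 FPKM there, 78.5 in Fat1-Sham1 and at most 2.74 in the remaining libraries. Bpifa1, the most abundant, stood at 600 and 1968 FPKM in WT-TAC, and Scgb3a2 was listed at 0 in the 5 libraries other than those and Fat1-Sham1. The 6 thymocyte markers summed to 1184 FPKM in WT-TAC1 and at most 1.90 elsewhere, with Cd4 at 302 and Rag1 at 252 in WT-TAC1.

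B and plasma cell markers summed to 392 and 218 FPKM in WT-TAC, 213 in Fat1-TAC2 and at most 11.1 elsewhere, with Ighm the most abundant. Adipocyte markers summed to 521 and 747 FPKM in WT-TAC and to between 222 and 379 elsewhere, with Fabp4 the most abundant. Skeletal muscle markers summed to 99.8 FPKM in WT-TAC1 and at most 8.75 elsewhere, and the blood list, led by Hbb-bs, to 5025 in WT-TAC1 within a range of 4240 to 10581. The part of these other cell types in the lower levels of the pseudogenes and mt- genes in WT-TAC was not tested. Of all fragments, the mt- genes together held 11.7% and 19.3% in the WT-TAC libraries against 22.8% to 27.6% elsewhere, and the 6 pseudogenes held 0.0596% and 0.122% against 0.140% to 0.243%.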

How the data were processed

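The authors mapped quality-filtered reads of 8 mouse heart libraries and deposited 1 table of FPKM values per gene and library. The submitters' processing notes name HISAT2, mm10 and GRCm38, and the counting program and its handling of reads with several places are not given in the sources used here. Symbols, gene models and transcript sequences were those of GENCODE M21 (GRCm38), with symbols for 25873 of 25929 genes, and 4 blank lines were removed. Whole fragments and depth were recovered from the FPKM steps (tolerance 0.02 fragments), and for 96.86% of the genes with a single annotated transcript every value was whole at its annotated length.

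Mitochondrial DNA was rebuilt from the annotated mt- transcripts, and nuclear copies were aligned with blastn 2.17.0 (at least 80% of the gene at 90% identity). Values were analysed as log2(FPKM + 1) with limma 3.58.1 (R 4.3.3), lmFit and eBayes with a trend, on 14442 genes that reached 1 FPKM in 2 libraries or more, with 4 group means. The fit was tested on simulated data. The labels call the 2 samples of a group independent without naming the animals, so p-values measure only the spread between these samples.

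The members, the gene lists and the tests were chosen with earlier results of these data known. Named genes were the members, their mt- counterparts, the mt- protein and rRNA genes, the 5 other listed copies with the highest means, the 3 tested genes most correlated with each member, and, from each nuclear list, the 2 most abundant and the 2 with the largest change in WT-TAC against WT-Sham. Gm11408, Gm11407 and Cox6a1 were named after their values were seen. Cell type markers were named outside this rule, and Scgb3a2 and Rag1 were not the most abundant of their lists. Alternatives were other scalings, filters, pseudocount, samples, a replicate block, recovered fragments, window lengths and leaving each library out. The counts without WT-TAC1 and the directions of the mt- protein genes with a library left out were chosen after seeing the data.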

Additional observations from a re-analysis of the deposited data

How the results depend on the processing

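With 2 libraries a group, precision was limited by their spread. In the 17 alternatives to the fit, no member was called in Fat1-Sham against WT-Sham or in Fat1-TAC against Fat1-Sham. The direction turned in the first of these for Gm13339 (-0.46 to 0.14 on leaving out 1 library at a time), Gm28438 (-0.69 to 0.02) and Gm10925 (-0.27 to 0.48), and in the second it was lower for every member in every alternative. The median of the members in WT-TAC against WT-Sham ran from -1.93 to -1.46, and from -1.83 to -1.02 leaving out libraries, and in Fat1-TAC against WT-TAC from 0.84 to 1.31 and from 0.35 to 1.20. With median-of-ratios scaling the median of all genes moved from 0.39 to -0.01 in WT-TAC against WT-Sham and from -0.40 to -0.01 in Fat1-TAC against WT-TAC.

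The 2 calls of mt- genes in Fat1-TAC against WT-TAC became 0 with median-of-ratios scaling, quantile normalization, a mean of 5 FPKM or only the 2 groups, and 1 with a pseudocount of 0.1 or limma-voom on recovered fragments. Leaving out libraries gave 0 to 13, the 13 without WT-TAC2, and in WT-TAC against WT-Sham 0 to 11, the 11 without WT-TAC2. The cause was not tested. Leaving out WT-TAC2 assumes that WT-TAC1 varies like the other groups. The 2 member calls in WT-TAC against WT-Sham, a comparison used to select the members, were 2 with no filter, 6 without WT-TAC2 and 0 under every other alternative, and support nothing. Over all genes, 133 called higher and 2 lower in WT-TAC than WT-Sham became 6497 and 911 without WT-TAC2, 0 and 0 without either WT-Sham library, and 6 to 286 and 0 to 7 under the other settings. The 5 higher and 201 lower in Fat1-TAC than WT-TAC became 1074 and 6763 without WT-TAC2, 2 and 4 without Fat1-TAC1, and 1 to 8 and 13 to 342 under the other settings, and the 1 gene called in Fat1-TAC against Fat1-Sham became 0 to 7 higher and 0 to 1 lower.

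Same-numbered libraries did not deviate together (correlations from -0.135 to 0.024), so the numbers were not taken as pairs. With the replicate number as a block, 0 mt- genes were called in Fat1-TAC against WT-TAC, 52 genes higher and 0 lower in WT-TAC than WT-Sham, and 1 higher and 51 lower in Fat1-TAC than WT-TAC. The members relative to mt- protein genes averaged 1.53% of FPKM over the 8 libraries and 0.755% of recovered fragments, which keep gene length, and 1.46% to 1.60% leaving out libraries. With windows of 50 or 150 bases the median shared stretch of the members was 99.5% or 99.2%, against 99.4%.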
